A study of Mus musculus with 2 samples.

Results

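The dermal papilla is the cluster of specialised mesenchymal cells at the base of each hair follicle, and its cells were examined here in single-cell RNA-seq of mouse back skin at postnatal day 53. Members were selected on unique molecular identifiers (UMIs, 1 per captured transcript) of 4 genes, Crabp1, Notum, Inhba and Corin, whose raw counts had to sum to at least 3 in a cell that passed the study's filter. Cells with Krt5 and Krt14 summing to 20 UMIs or more, or Cd3e, Cd3d and Cd3g to 2 or more, were left out. The rule found 367 cells among 7564 kept cells, 145 of 3936 in the control library and 222 of 3628 in the miR-205 inducible library. The groups were 1 control mouse and 1 miR-205 inducible mouse, gender matched, each giving 1 10x Genomics library, and both carried Krt14-H2B-GFP. The inducible mouse also carried Krt14-rtTA and pTRE2-miR-205, so that doxycycline switches on the microRNA in cells with an active Krt14 promoter, which are those of the epithelium and not of the dermis. That mouse was fed doxycycline chow for 4 days from postnatal day 49. The labels call the control untreated, whereas the study's protocol gives doxycycline to both, and the labels name C57BL/6 while the methods describe an FVB transgenic. Cells had been sorted to epidermal, hair follicle and dermal fractions at 3:5:2.

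Dermal papilla cells signal to the hair follicle stem cells and hair germ above them, and this exchange governs the passage from telogen, the resting phase, to anagen, the growth phase. They release Wnt agonists and antagonists, bone morphogenetic proteins (BMPs) and activins, fibroblast growth factors (FGFs) and R-spondins. They also release agouti, which sets the pigment type made by follicle melanocytes.

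With 1 mouse per group there was no replicate check, and every interval given is a 95% interval of counting error only. Levels are UMIs summed over the cells of a population in a library and scaled to CPM of that sum, so that populations of unequal size and depth share a scale. The members' sums held 849122 UMIs in the control and 1454205 in the induced library. Ratios carry an added 0.5 UMIs and were restricted to genes reaching 20 UMIs in the 2 groups together. A gene counts as called beyond 2-fold. A fold against a population with no UMI is a lower bound, set against 3 UMIs per library.

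The molecule that separates the groups is mouse miR-205-5p. Its mature sequence is shown because the 7 bases of the seed, in capitals, are what a target transcript pairs with. RefSeq places it on build GRCm38.p6 at chr1:193507503-193507524, minus strand.
mmu-miR-205-5p: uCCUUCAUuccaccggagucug
Mature microRNAs of this length are not captured by a poly(A)-primed 3′ library, so the level of miR-205 in the members was not measured.

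Members made up 3.68% of kept control cells (Clopper-Pearson interval 3.12 to 4.32) and 6.12% of kept induced cells (5.36 to 6.95). The share was higher in the induced library, but the sort set the dermal fraction, so the shares do not count papilla cells per skin. A member held a median of 4871 UMIs in the control and 5874 in the induced library, against 10408 and 10178 in dermal fibroblasts. The 4 rule genes summed to a median of 22 UMIs per control member and 16.5 per induced member, with the highest cells at 136 and 93. At the threshold, 12 control and 12 induced members had a sum of exactly 3, and 17 and 22 kept cells had a sum of 2. Marker counts varied on either side of the threshold. Rspo3, which encodes a secreted amplifier of Wnt signals, had 1 UMI in the 12 control members at 3 and 0 UMIs in the 17 control cells at 2. In the induced library it had 1 UMI in the 12 members at 3 and 3 UMIs in the 22 cells at 2. Spon1, also a papilla marker, had 4 UMIs at 3 and 17 at 2 in the control, and 18 and 28 in the induced library. Trps1, another, had 14 and 35 UMIs in the control and 33 and 25 in the induced library. Control members at 3 held Col1a1 at 17459 CPM and Krt17 at 8525 CPM, against 3372 and 63.6 CPM in induced members at 3. No barcode was a member in both libraries, although 11 barcodes occurred in both files and 5 were kept in both.

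The label was checked against 24 dermal papilla markers that the rule did not use. They summed to 2453 CPM in control members and 3021 CPM in induced members, against 730.1 and 1017 CPM in dermal fibroblasts and 38.9 and 69.6 CPM in T cells. The level in members lay above both, but members were not uniform. After the data had been seen, members were divided by the UMIs of Col1a1, Col1a2, Col3a1 and Dcn, the main collagens and the matrix proteoglycan of fibroblasts, with a limit of 20 UMIs. There were 120 control and 187 induced members below the limit, here called collagen-low, with a median collagen sum of 1 UMI in each library. There were 22 control and 34 induced collagen-high members, with medians of 569 and 402.5. The remaining 3 control cells and 1 induced cell held 20 or more UMIs of Krt17, Krt79, Krt15 and Krt10. The 24 markers summed to 3222 CPM in control and 3226 CPM in induced collagen-low members, a level shared by the libraries. In collagen-high members they summed to 1060 and 2555 CPM, from 287 and 1039 UMIs. Of these UMIs, 97 and 672 came from the 5 control and 13 induced cells of cluster 3, described below.

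Crabp1 had the most UMIs of the rule genes in both classes of the control, with Crabp1 in 118 of 120 and Inhba in 89 of 120 collagen-low cells, and 12 of 22 and 13 of 22 collagen-high cells. In the induced library Crabp1 was found in 178 and 22 cells of the 2 classes and Inhba in 151 and 13. Inhba stood at 1660 and 1688 CPM in collagen-low and 203.1 and 137.7 CPM in collagen-high members. Crabp1 stood at 3651 and 1966 CPM against 1089 and 1402 CPM. The classes differed in the other rule genes too. Notum, which encodes a carboxylesterase that inactivates Wnt proteins, was found in 99 of 120 control and 150 of 187 induced collagen-low cells, but in 3 of 22 and 3 of 34 collagen-high cells. Corin, a protease that modifies coat pigmentation, was found in 9 and 6 collagen-low cells and in no collagen-high cell. In the collagen-high cells, 16 of 22 and 30 of 34 met the rule with UMIs of a single rule gene, compared with 8 of 120 and 10 of 187 collagen-low cells. Prlr, the prolactin receptor, had 232 and 406 UMIs in collagen-low members and 0 and 0 in collagen-high members. Lef1, a nuclear effector of Wnt signalling, had 140 and 183 UMIs against 0 and 0. The collagen-high cells also held more RNA, with medians of 12410 and 12223 UMIs against 4604 and 5615, and they contributed 31.9% and 28.0% of all member UMIs while being 15.2% and 15.3% of member cells. For this reason the values below are those of collagen-low members unless all members are named.

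**Figure D1:**
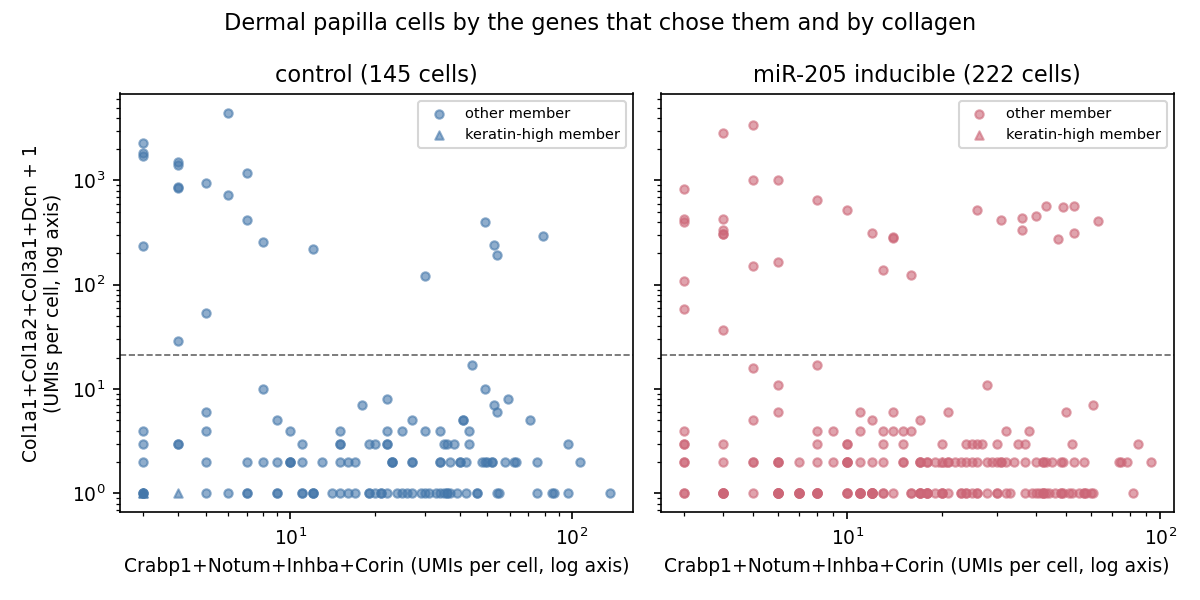
Each point is 1 member cell, with the summed UMIs of the rule genes on the horizontal axis and the summed UMIs of Col1a1, Col1a2, Col3a1 and Dcn plus 1 on the vertical axis (both logarithmic), in the control and the induced library. The collagen-low members lie under the line at 20 UMIs with a median of 1, and the collagen-high members lie above it with medians of 569 and 402.5.

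Markers of most other cell types summed to low levels in the collagen-low members. The 7 pericyte markers summed to 157.3 and 237.7 CPM, near the 164.2 and 265.3 CPM of fibroblasts. Cspg4, 1 of them, stood at 81.4 and 166.8 CPM. Against fibroblasts, 5 pericyte, 4 macrophage and Langerhans and 4 Schwann cell markers were tested. In each list 1 was more than 2-fold higher in both libraries, and 1, 1 and 3 were lower. The shares among all genes tested were 11.8% higher and 12.4% lower. The 14 dermal fibroblast markers summed to 663.6 and 516.1 CPM, against 126027 and 91796 CPM in fibroblasts, where that low value is set by the division itself. The 9 markers of dermal sheath and smooth muscle summed to 325.5 and 416.1 CPM, nearly all of it from Cald1, an actin-binding protein of many cell types, at 318.3 and 406.4 CPM. Keratinocyte markers outside the rule summed to 665.4 and 527.7 CPM, against 838.4 and 578.5 CPM in T cells and 365.9 and 314.8 CPM in fibroblasts, neither of which makes them. Of 11 such markers tested against fibroblasts, rule genes included, 10 had a log2 ratio above 0, with a median of 0.71. For Krt14 itself, which the rule limits, 41.3% of control and 22.9% of induced cells would show a UMI at 2000 UMIs per cell, against 34.4% and 31.0% of T cells, with overlapping intervals in each library (32.2 to 50.8 and 19.8 to 51.6 in the control, 17.0 to 29.6 and 21.2 to 42.4 in the induced).

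Compared with dermal fibroblasts of the same library (100 control and 127 induced cells with 20 or more collagen UMIs that were not members), most papilla markers were higher in the members. Of 22 markers tested, 18 were more than 2-fold higher in collagen-low members in both libraries and 1 was more than 2-fold lower. The 18 include Crabp1, Notum and Inhba, which the rule used. The list's median log2 ratio was 3.84, or 3.29 with the fibroblast zeros set at their bound, while the median of all genes was 0.23 in the control and 0.11 in the induced library. Among all 9138 genes tested, 11.8% were called higher in both libraries and 12.4% lower. In all members 18 of 22 were higher and 0 lower, with 8.3% of 9541 genes called higher and 6.09% lower. Since the members were chosen on genes of this contrast, these counts describe the population and test nothing.

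R-spondins and Wnt proteins act on the follicle epithelium and on the papilla itself. Rspo3 stood at 103.1 CPM in control and 137.7 CPM in induced collagen-low members, and at 0.87 and 0.75 CPM in fibroblasts. The folds were 118 (20.4 to 4742) and 184 (32.5 to 7309), wide because the fibroblasts gave 1 UMI per library. Wnt10a, a ligand of canonical Wnt signalling, stood at 28.9 and 40.7 CPM, 33.1-fold (5.15 to 1389) and 27.2-fold (7.07 to 232) above fibroblasts. Wnt6 was 4.40-fold (1.80 to 11.8) and 3.60-fold (2.06 to 6.55) higher. In all, 6 of 10 tested ligands and R-spondins were higher in both libraries and 2 were lower, against 11.8% and 12.4% of all genes tested.

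Secreted Wnt inhibitors were present beside these ligands. Wif1, which binds Wnt proteins outside the cell, stood at 289.3 and 272.6 CPM, 25.5-fold (14.5 to 48.9) and 16.5-fold (10.7 to 26.8) above fibroblasts. Dkk2, a ligand of the Wnt co-receptors Lrp5 and Lrp6, stood at 370.7 and 560.7 CPM, 3.27-fold (2.61 to 4.10) and 3.31-fold (2.83 to 3.88) above. Sfrp1, a soluble Frizzled-related protein, was 4.56-fold and 3.88-fold higher. Of 8 inhibitors tested, 5 were higher, with Notum among them, and 3 were lower. Among 17 Wnt receptors and response genes, 6 were higher and 1 was lower. For both lists the share of all genes tested was 11.8% higher and 12.4% lower. Lef1 led them at 253.2 and 177.5 CPM, 145-fold (39.4 to 1209) and 237-fold (42.0 to 9405) above fibroblasts. Nkd2, a feedback inhibitor induced by Wnt, stood at 238.7 and 135.8 CPM, 11.9-fold (7.59 to 19.4) and 3.62-fold (2.61 to 5.11) above.

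Ligands of the BMP and activin branches included several that were higher than in fibroblasts, with 5 of 11 higher and 2 lower. All genes tested gave 11.8% higher and 12.4% lower. The 5 higher ligands include Inhba, which the rule used. Bmp4, which restrains hair follicle stem cells in telogen, stood at 231.5 and 186.2 CPM, 6.02-fold (4.25 to 8.69) and 4.36-fold (3.23 to 5.97) higher. Bmp7 stood at 182.6 and 190.1 CPM, 7.21-fold (4.73 to 11.3) and 7.46-fold (5.16 to 11.1) higher. Gdf10, a divergent member of the family, had 45 and 32 UMIs against none in fibroblasts, at least 31.1-fold and 13.8-fold higher. Of 12 BMP and activin antagonists, 6 were lower and 2 higher in collagen-low members, and 2 lower and 0 higher over all members. Over all members 6.09% of all genes tested were lower and 8.3% higher. The 2 antagonists that were higher in collagen-low members, Bambi and Smad7, act at the receptor or inside the cell.

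Fgf7, an FGF made by mesenchyme for epithelium and listed as a papilla marker, was at the fibroblast level, with 141.0 and 125.1 CPM against 152.0 and 163.4 CPM. Fgf10, of the same subfamily, stood at 45.2 and 26.2 CPM, 5.75-fold (2.60 to 14.0) above fibroblasts in the control but 1.75-fold (0.94 to 3.29) in the induced library. Fgfr1, an FGF receptor, was 2.89-fold (2.46 to 3.40) and 3.03-fold (2.70 to 3.40) higher. Hhip, a decoy for hedgehog ligands, had 13 and 33 UMIs against 1 and 1 in fibroblasts. Of 10 tested hedgehog genes it was the only one higher in both libraries, and 1 was lower. Gli1, a target of hedgehog signalling, stood at 27.1 and 15.5 CPM in the members and 14.0 and 15.7 CPM in fibroblasts. Dll1, a Notch ligand, stood at 289.3 and 269.7 CPM, 55.2-fold (24.8 to 153) and 22.5-fold (13.6 to 39.9) above fibroblasts, and was the only one of 6 tested Notch genes called. Among all genes tested, 11.8% were called higher and 12.4% lower, so 1 call in lists this short does not set either list apart.

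Of 22 transcription factors listed for the papilla, 11 were higher in both libraries and 2 were lower, against 11.8% and 12.4% of all genes tested. Runx3 stood at 439.4 and 313.3 CPM, 45.7-fold (25.1 to 92.8) and 23.2-fold (14.5 to 39.7) above fibroblasts. Runx1, of the same family, was 10.7-fold (8.11 to 14.3) and 3.98-fold (3.30 to 4.83) higher. Prdm1, a repressor also known as Blimp1, was 10.4-fold and 6.41-fold higher. Trps1, a repressor of the GATA family, was 3.43-fold and 2.68-fold higher. General mesenchymal factors were at similar levels in both populations. Twist1 stood at 556.9 and 534.5 CPM against 475.1 and 402.5 CPM, and Prrx1 at 669.1 and 709.1 CPM against 530.1 and 575.6 CPM. Sox2, known from the papillae of some hair types, had 5 and 14 UMIs, found in 4 of 120 and 8 of 187 cells.

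Among all genes, those furthest above fibroblasts included Slc26a7, an anion exchanger, with 483 and 537 UMIs and none in fibroblasts, at least 333-fold and 232-fold higher. Lcn2, a lipocalin that binds siderophores, had 102 and 112 UMIs and none in fibroblasts, at least 70.4-fold and 48.3-fold higher. Only 25 of 120 and 23 of 187 cells held these UMIs. Prlr was 96.1-fold (40.6 to 299) and 263-fold (72.3 to 2177) higher. Igfbp3, which binds insulin-like growth factors, stood at 3392 and 5344 CPM against 35.8 and 72.7 CPM, 94.7-fold (69.6 to 133) and 73.5-fold (60.1 to 90.8) higher. Serpine2, a protease inhibitor, stood at 1342 and 1437 CPM. Tnc, the matrix glycoprotein tenascin C, had 84 and 96 UMIs against 1 and 1. Asip, which encodes agouti, stood at 258.6 and 123.2 CPM, 19.7-fold (11.6 to 36.2) and 6.32-fold (4.12 to 10.1) above fibroblasts, and Mdk, a heparin-binding growth factor, at 177.2 and 138.7 CPM. Spon1, an extracellular matrix protein listed as a papilla marker, was 170-fold (57.4 to 829) higher in the control but 16.9-fold (12.1 to 24.2) in the induced library. The members' own levels of Spon1 were close, at 444.8 and 467.6 CPM, and the fibroblasts' levels differed, at 2.62 and 27.7 CPM.

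**Figure D2:**
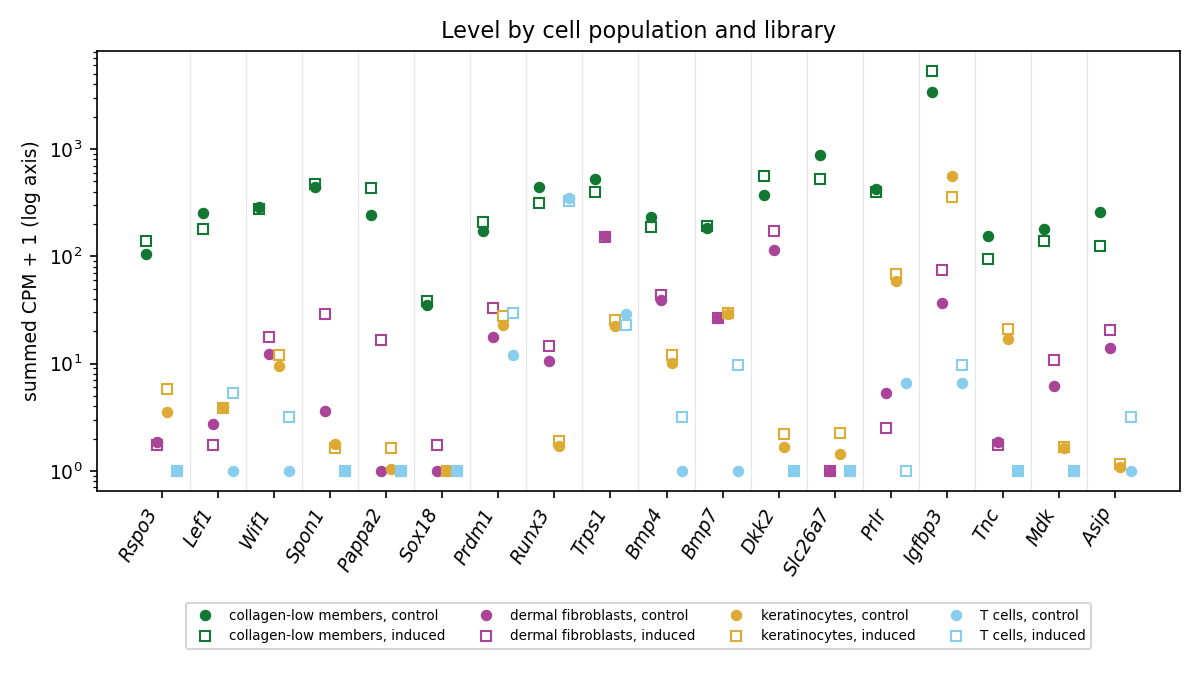
Summed CPM plus 1 on a logarithmic axis for named genes in collagen-low members, dermal fibroblasts, keratinocytes and T cells, with circles for the control and squares for the induced library. Rspo3, Lef1 and Slc26a7 are at or below 1.75 CPM in fibroblasts and between 103.1 and 873.4 CPM in the members, while Runx3 is as high in T cells as in the members and Prlr and Igfbp3 are also seen in keratinocytes.

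Most matrix genes lay lower. Outside the 4 genes used to form the classes, Sparc, a collagen-binding matricellular protein, stood at 112.1 and 86.3 CPM in collagen-low members and 23927 and 15686 CPM in fibroblasts, 213-fold (166 to 278) and 182-fold (148 to 226) lower. Igfbp5 had no UMI in 307 collagen-low members and 2640 and 2114 UMIs in fibroblasts, at least 425-fold and 545-fold lower. In the collagen list 10 of 13 genes were lower, in the basement membrane list 8 of 16, and among proteoglycans and matrix glycoproteins 16 of 24. In these lists 0, 1 and 4 genes were higher, while all genes tested gave 11.8% higher and 12.4% lower. Tnc, named above, was higher in the members. Aspn, a small leucine-rich proteoglycan, was also higher there, 2.68-fold (2.31 to 3.12) and 4.52-fold (4.12 to 4.97). Both populations were defined by collagen UMIs, so genes that accompany collagen were set apart by the choice of cells.

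Chemokines were lower as well, with 13 of 15 more than 2-fold lower in both libraries, against 12.4% of all genes tested. Ccl2, which attracts monocytes, stood at 25.3 and 18.4 CPM against 2930 and 4852 CPM, and Ccl7, of the same family, had 3 and 3 UMIs against 3104 and 5181. Mt1, a metallothionein that binds zinc, was 10.8-fold (9.64 to 12.2) and 7.39-fold (6.87 to 7.96) lower. B2m, the light chain of class I major histocompatibility complex, was 6.74-fold (5.78 to 7.91) and 5.87-fold (5.29 to 6.52) lower, and 7 of 11 interferon-stimulated genes were lower. Over all members, collagen-high cells included, 8 of 15 chemokines and 3 of 12 interferon-stimulated genes were lower, against 6.09% of all genes. Socs3, a feedback inhibitor of cytokine receptors, was instead 8.64-fold (7.14 to 10.5) and 4.09-fold (3.61 to 4.64) higher. Mki67, a marker of cycling cells, had 1 UMI in control members.

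Because members are shallow, the share of cells with a UMI was computed at 2000 UMIs per cell, leaving out 5 control and 3 induced collagen-low cells with fewer. For Rspo3 the share was 15.9% (9.72 to 23.8) in the control and 19.7% (14.2 to 26.1) in the induced library, and for Lef1 38.2% (29.3 to 47.7) and 27.1% (20.8 to 34.1). In both cases the intervals of the libraries overlapped. The share for Rspo3 was 0 in T cells (median depth 4451 and 5083 UMIs) and 0.48% and 0.88% in keratinocytes (12536 and 12540.5 UMIs), which sets the background. Over all members the shares were 13.1% and 17.3% for Rspo3 and 31.4% and 22.9% for Lef1. Without thinning they were 22.1% and 33.8% for Rspo3 and 52.4% and 42.8% for Lef1, again over all members. The share of either gene was higher at the greater depth in both libraries.

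Clustering of the members without the rule genes gave 4 clusters, which were left unnamed. Their leading genes define them and are not results. Cluster 0 held 99 control and 154 induced cells and was led by Cdsn, Cdh23, P4ha3 and Acpp. Krt80 and Krt79 were also among its 10 leading genes, and Cdsn and these keratins are keratinocyte genes. The 3 control cells and 1 induced cell high in keratin fell in this cluster. Cluster 1 held 24 and 35 cells and was led by Fos, Tfap2c, Egr1, Txnip and Hspa1a, which include immediate early and heat shock genes that respond to cell dissociation. In cluster 1 Crabp1 was found in 24 of 24 and 34 of 35 cells, but Inhba, which encodes an activin subunit, in 8 of 24 and 17 of 35, compared with 84 of 99 and 137 of 154 in cluster 0. In CPM, Inhba stood at 221.1 and 275.6 in cluster 1 and 1861 and 1937 in cluster 0. Bmp4 stood at 608.1 and 478.1 CPM in cluster 1 and 149.6 and 124.8 CPM in cluster 0.

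All cells of clusters 2 and 3 were collagen-high. Cluster 2 held 17 and 19 cells led by Ccl11, Igfbp2 and C3, which are genes of dermal fibroblasts. Of the rule genes, Inhba was found in 12 and 10 of these cells and Crabp1 in 7 and 9. Cluster 3 held 5 and 13 cells led by Cck, Ngb, Kera and Fmod. Crabp1, which encodes a cytosolic retinoic acid binding protein, stood at 4238 and 2954 CPM there, against 3335 and 1742 CPM in cluster 0 and 4334 and 2807 CPM in cluster 1. Cluster 3 had Wif1 at 544.2 and 856.6 CPM, yet no UMI of Rspo3, Lef1, Spon1 or Slc26a7 in either library. Tnmd, known from tendon, stood at 2457 and 3858 CPM there and at 0 in clusters 0 and 1. Its position in the skin was not recorded, and with 5 control cells its levels rest on few cells.

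**Figure D3:**
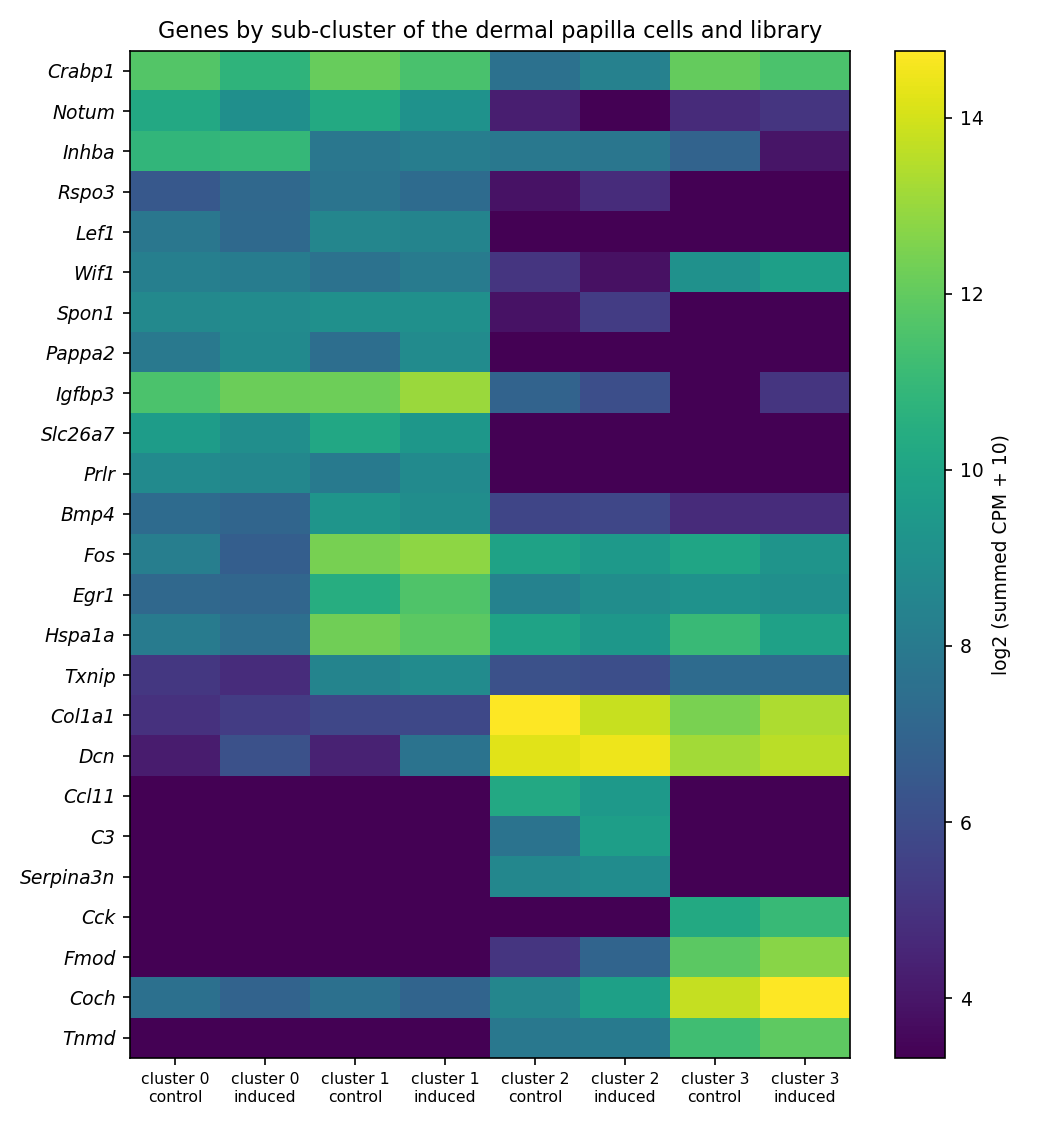
Colour gives log2 of summed CPM plus 10 for named genes (rows) in the 4 clusters of member cells, with control and induced libraries as separate columns. Clusters 0 and 1 carry Notum, Rspo3, Lef1 and Slc26a7, cluster 2 carries Col1a1 and Dcn, and cluster 3 carries Crabp1, Wif1 and Tnmd beside collagen, without Rspo3 or Lef1.

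To see what differed in the papilla of the mouse that carried the inducible miR-205 in its epithelium, where miR-205 is also made without it, the induced and control members were set against each other. Most genes were close. Among 6405 genes tested in collagen-low members, 231 (3.61%) were beyond 2-fold higher and 232 (3.62%) lower in the induced library, with a median log2 ratio over all genes of -0.07. Over all members, 248 of 7797 genes (3.18%) were higher and 288 (3.69%) lower, with a median of -0.03. Of 19 papilla markers tested in collagen-low members, 1 was called higher, Cntfr, and 1 lower, Notum, and the list's median was -0.09.

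Among the rule genes the libraries differed, given here without a reading because these genes chose the cells. Crabp1 stood at 3651 CPM in the control and 1966 CPM in the induced library, a log2 ratio of -0.89 (-0.98 to -0.80), and at -0.60 over all members. Notum stood at 1237 and 528.7 CPM, a ratio of -1.23 (-1.39 to -1.06). Inhba stood at 1660 and 1688 CPM, a ratio of 0.02 (-0.09 to 0.14). Crabp1 and Notum were thus lower and Inhba level in the induced library.

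Of the other Wnt genes, Wnt16 was lower in the induced library, at 79.6 and 21.3 CPM with a log2 ratio of -1.88 (-2.71 to -1.13). Rspo1, an R-spondin like Rspo3, was higher at 38.0 and 112.5 CPM, with a ratio of 1.54 (0.89 to 2.31) that was 0.59 over all members. Rspo3 had a ratio of 0.41 (-0.03 to 0.89), whose interval included 0. Lef1 had a ratio of -0.51 (-0.84 to -0.18), Nkd2 of -0.81 (-1.17 to -0.46), Dkk2 of 0.59 (0.36 to 0.83) and Wif1 of -0.09 (-0.37 to 0.20). No Wnt receptor or response gene of 13 was beyond 2-fold.

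In the BMP branch, Bmp4 had a log2 ratio of -0.32 (-0.64 to 0.02) and Bmp7 of 0.05 (-0.30 to 0.42), so neither could be told from level at this depth. Bmp2 was at 0.57 (0.12 to 1.05). Gdf10 was lower at 81.4 and 31.0 CPM, a ratio of -1.38 (-2.09 to -0.70). Inhbb, the other common activin subunit, was higher at 7.23 and 33.0 CPM with a ratio of 2.04 (0.70 to 4.14), from 4 and 34 UMIs. Fst, the activin antagonist follistatin, was lower at 66.9 and 26.2 CPM with a ratio of -1.35 (-2.12 to -0.60). It was also lower in collagen-high members, at 66.5 and 34.4 CPM. The ratio over all members, -0.21, also counts the 3 control cells and 1 induced cell high in keratin. Among other signals, Jag1, a Notch ligand, had a ratio of -1.27 (-1.98 to -0.59), Asip of -1.07 (-1.43 to -0.71) and Fgfr1 of 0.53 (0.36 to 0.71).

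The genes with the highest ratios among 2100 with at least 100 UMIs were led by Gm8797, a predicted gene with 29 UMIs in the control and 1080 in the induced library. Its log2 ratio was 4.30 (3.79 to 4.91) in collagen-low members, 4.34 in fibroblasts and 4.64 in keratinocytes, so the difference was present in all 3 populations, and reads of near-identical copies may be counted to it. Gdpd3, a glycerophosphodiesterase, had 86 UMIs in the control and 0 in the induced library, at least 53.4-fold lower, and was 83.9-fold (22.8 to 699) lower in fibroblasts and 10.5-fold (7.09 to 16.2) lower in keratinocytes. S100g, a vitamin D-dependent calcium-binding protein, followed at 59.7 and 212.4 CPM with a ratio of 1.81 (1.30 to 2.41), from 13 of 120 and 46 of 187 cells. Angptl4, an inhibitor of lipoprotein lipase, stood at 50.6 and 174.6 CPM with a ratio of 1.76 (1.21 to 2.42). Aspn stood at 723.3 and 1973 CPM with a ratio of 1.45 (1.29 to 1.61), and the fibroblast ratio was 0.69. The others of the 10 highest were Rspo1, Epb41l4aos, Eif4b, Plvap, Klf2 and Map3k6, with ratios from 1.25 to 1.54.

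Among the genes with at least 100 UMIs, the lowest ratio belonged to Spp1, the secreted phosphoprotein osteopontin. It stood at 1132 CPM in the control and 330.8 CPM in the induced library, from 42 of 120 and 34 of 187 cells. Its log2 ratio was -1.77 (-1.97 to -1.58), while the fibroblast ratio was 0.00. Col6a3, a chain of collagen VI, stood at 835.4 and 328.8 CPM with a ratio of -1.34 (-1.55 to -1.14), while the fibroblast ratio was 0.34. Crispld1, a secreted protein of the cysteine-rich family, stood at 222.4 and 85.4 CPM with a ratio of -1.38 (-1.79 to -0.98). Sec61b and Ddost, parts of the machinery for protein entry and glycosylation in the endoplasmic reticulum, had ratios of -1.43 and -1.38, and Srxn1, Rarres1, Mdh1, Rasd1 and Fkbp2 ranged from -1.44 to -1.21. The papilla and fibroblast ratios of these genes were not compared by a test, since each rests on 1 mouse per group. Over all members Gdpd3 was lowest, with 121 and 0 UMIs, and the next ranks were filled by keratinocyte genes such as Krt79, at 429.9 and 13.1 CPM. In the control 5 cells held 96.4% of the Krt79 UMIs, and among collagen-low members the ratio was -0.50 (-1.66 to 0.73). Keratinocyte markers were nonetheless lower in the induced collagen-low members as a list, with 10 of 10 tested genes below 0, 1 of them beyond 2-fold, and a median of -0.50. Krt14, which the rule limits, stood at 249.5 and 131.0 CPM. The part of epithelial RNA in the ratios above was not tested.

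**Figure D4:**
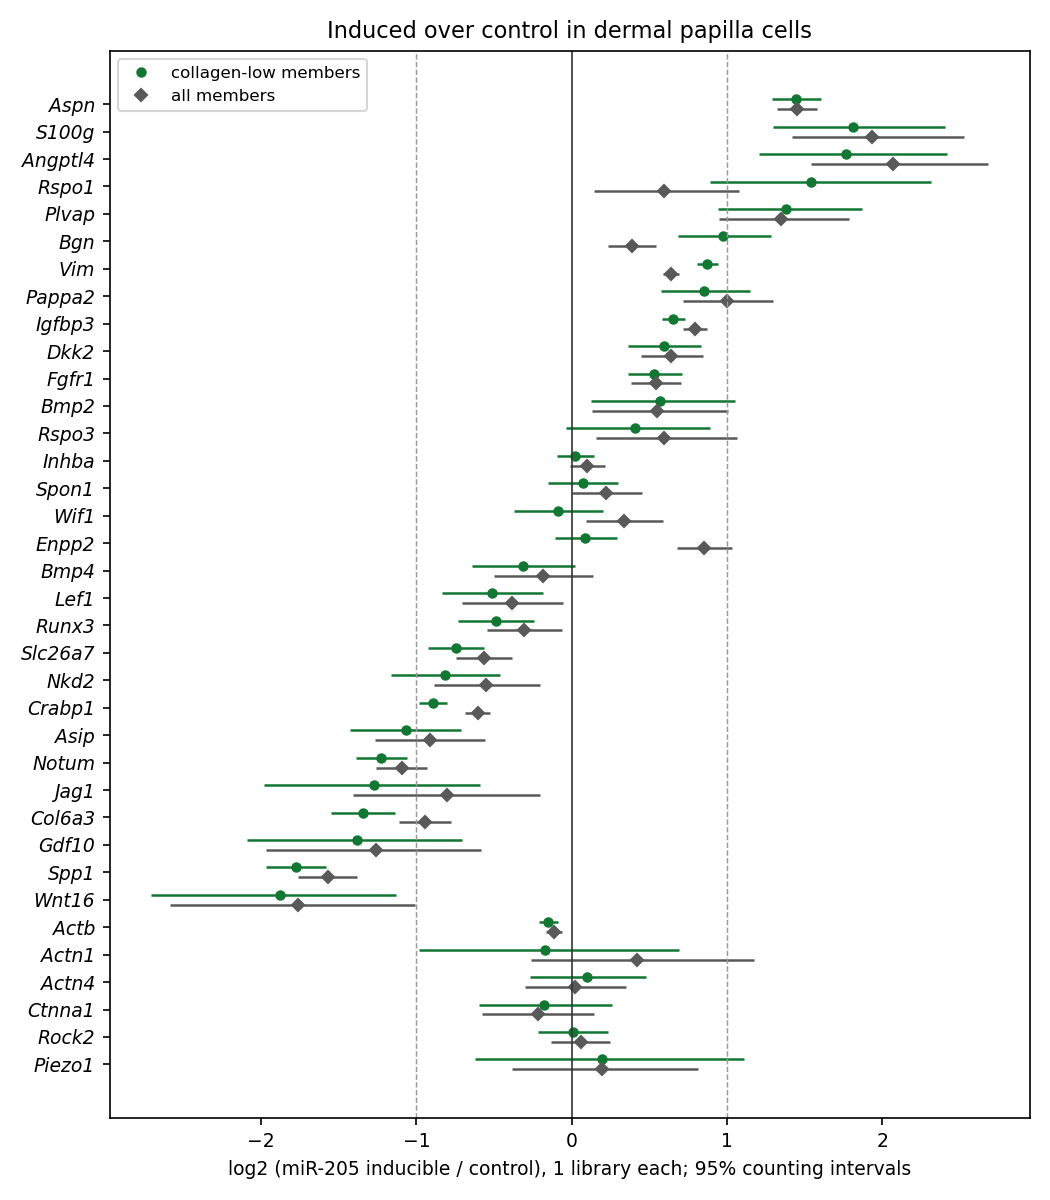
Log2 ratios of induced over control with 95% counting intervals for named genes, in collagen-low members (circles) and in all members (diamonds), with dashed lines at 2-fold. Aspn is at 1.45 in both sets and Spp1 at -1.77 and -1.57, while Enpp2 is at 0.09 in collagen-low members and 0.85 in all members, and the 6 miR-205 targets examined are at the bottom, all within 2-fold.

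Among the miR-205 targets of the study, 6 cytoskeletal and adhesion genes named in its text were examined, and all were detected in the papilla cells. Actb, encoding cytoplasmic beta-actin, stood at 6110 and 5501 CPM in collagen-low members, a log2 ratio of -0.15 (-0.21 to -0.09). Rock2, a kinase that activates myosin, stood at 461.1 and 463.7 CPM, a ratio of 0.01 (-0.21 to 0.23). Ctnna1, encoding alpha-catenin, had -0.18 (-0.60 to 0.26), Actn4, an actin crosslinker, 0.10 (-0.27 to 0.48), and Piezo1, a mechanosensitive channel, 0.20 (-0.62 to 1.11). None of the 6 was beyond 2-fold, and Actb alone had an interval that left out 0. None of the 32 actomyosin and adhesion genes tested was beyond 2-fold either, with a median of 0.05. Among all 6405 genes tested, 3.61% were higher and 3.62% lower, so few calls were to be had in lists of this size. The study calls the reduction of each target mRNA mild, and a 2-fold limit could miss a change of that size. The largest of these ratios was that of Vim, which encodes the mesenchymal intermediate filament vimentin, at 4211 and 7709 CPM with 0.87 (0.81 to 0.94), and 0.45 in fibroblasts.

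Immediate early and stress genes can reflect the digestion of the tissue. None of 25 tested was beyond 2-fold between libraries and the median was 0.11, with Egr1 highest at 0.86 (0.62 to 1.10) and Hspa1b lowest at -0.94 (-1.18 to -0.70). The part of dissociation in the ratios above was not tested.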

How the data were processed

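Raw UMI counts per gene and barcode, which the authors deposited after 10x 3′ counting with Cell Ranger (mm10 per the submitters' processing notes, version 3.0.1 in the matrix header), were used without change. Cells had more than 200 and fewer than 5000 genes and under 10% mitochondrial UMIs, the study's filter. Members and gene lists were chosen with earlier results of these data known, so nothing was tested on them. Counts were summed per population and library, with exact conditional binomial intervals for ratios and Clopper-Pearson intervals at 95% for shares. Shares are expected values at 2000 UMIs per cell. Keratinocyte shares came from 500 cells per library. Clusters used Leiden on log-normalised counts (scanpy 1.11.5, igraph 0.11.9, scipy 1.17.1, python 3.11.15). The count method was checked on data simulated with counting error only. That check had no variation between cells, so it does not cover genes held by few cells. Doublets were kept. Scrublet's highest scores marked 143 control and 124 induced barcodes, of which 2 and 4 were members. Genes named outside the lists were the 10 highest and 10 lowest induced-over-control ratios with at least 100 UMIs, and the 20 highest and 10 lowest over fibroblasts, or appear as leading genes of clusters. In addition Sparc, Mt1, B2m and other listed genes are named as members of their lists, and Asip carries the symbol a in the files. Alternatives changed the cell filter, membership, scaling, weighting, count minimum, pseudocount and thinning.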

Additional observations from a re-analysis of the deposited data

How the results depend on the processing

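None of the genes recomputed under every alternative was called in opposite directions. Cxcl2, which was not among them, was called lower over all members, at 60.1 and 29.6 CPM with 1 control cell holding all 51 UMIs, and higher in collagen-low members, at 0 and 38 UMIs. Of single genes that were not called, Wif1 went from 0.34 over all members to -0.09 in collagen-low members. Counts of genes beyond 2-fold moved with the count minimum. At 100 UMIs they were 39 higher and 44 lower for induced over control and 365 higher and 352 lower for all members over fibroblasts, and at 1 UMI they were 1288, 1830, 1431 and 982. The genes lower than fibroblasts numbered 912 when 2 of the 4 rule genes were required and 1129 in collagen-low members, a division chosen after seeing the data. Shares over all members depended on depth. Thinned to 1000 UMIs they were 7.27% and 10.3% for Rspo3 and 19.3% and 13.2% for Lef1 in control and induced cells, and without thinning 22.1% and 33.8% for Rspo3 and 52.4% and 42.8% for Lef1. Clustering at resolution 1.0 gave 7 clusters. No paired analysis was possible because each group had 1 library. The depth of a member, a median of 4871 or 5874 UMIs, limits single-cell statements to abundant transcripts.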

Other observations

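Retinoid genes beside Crabp1 were sparse in the papilla. Cyp26b1, which degrades retinoic acid, had 14.5 CPM in control and 51.4 CPM in induced collagen-low members, against 236.7 and 475.2 CPM in fibroblasts, and its log2 ratio was 1.76 (0.75 to 3.11) in collagen-low members but 0.44 over all members. Crabp2, the paralog of Crabp1, stood at 30.7 and 24.3 CPM. Only Crabp1 of 11 tested retinoid genes was more than 2-fold higher than in fibroblasts in both libraries, and it chose the cells.

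Mid1, a microtubule-associated ubiquitin ligase, had 3 UMIs in control and 71 in induced collagen-low members, a log2 ratio of 3.45 (2.06 to 5.98), and 2.26 over all members. Its ratio was 0.77 in fibroblasts and 1.07 in keratinocytes. Enpp2, which makes lysophosphatidic acid and is listed as a papilla marker, had a ratio of 0.85 over all members but 0.09 (-0.11 to 0.29) in collagen-low members. In the collagen-high members it stood at 155.1 CPM in the control and 1143 CPM in the induced library, from 42 and 465 UMIs. Cluster 3, with 5 and 13 cells, held 20 and 365 of these UMIs. Cdkn1a, a cyclin-dependent kinase inhibitor, stood at 748.6 and 793.5 CPM in collagen-low members and 476.0 and 478.2 CPM in fibroblasts.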
